A study of Mus musculus with 47 samples.

Results

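The interferon response and antigen presentation genes are 35 mouse genes that sense foreign nucleic acid, receive or transmit interferon signals, act against viruses, or load and display peptides on major histocompatibility complex (MHC) class I molecules. They were chosen by name and role, with earlier results of these data known. Each was measured by the brightest of its probes whose detection p was under 0.01 in at least 4 of the 47 arrays. Of the 35 genes, 22 passed that filter and were tested, among 8658 genes tested in all. The RNA came from skeletal muscle progenitors of the back of E17.5 mouse embryos, isolated by flow cytometry as cells positive for Vcam-1 and negative for CD31, CD45 and Sca1, and was hybridised to Illumina bead arrays on 7 chips.

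There were 5 genotypes, on a background that mixes the strains C57BL/6 and 129/Sv with 129/Ola. The Rbpj;MyoD mutant group, here also the Rbpj mutant (7 arrays), was Pax3cre/+;Rbpjflox/flox;MyoD-/-, and the DnMaml;MyoD mutant group, here also the DnMaml mutant (8 arrays), was Pax3cre/+;DnMamlflox/flox;MyoD-/-. The other groups were MyoD-/- (18 arrays), MyoD+/- (4 arrays) and wild type (10 arrays). Rbpj is the DNA-binding partner of the Notch receptors, DnMaml is a dominant-negative form of the Notch coactivator Mastermind-like, and MyoD is a transcription factor of muscle differentiation. Both Notch mutants therefore also lacked MyoD, and were set against MyoD-/-, which was set against wild type. The Cre in both Notch mutants was driven from the Pax3 locus, and the labels of the MyoD-/- group list no Cre. An effect of the Cre allele therefore cannot be told apart here from that of Rbpj loss or of DnMaml. The labels do not say whether arrays of a genotype came from separate embryos or from pools, so a p-value measures the spread between these arrays, which may in part be technical. After genotype and chip were fitted, arrays at the same position of chips 6 and 7 correlated with a median r of 0.49, against -0.11 to 0.12 for the other pairs of chips compared, and 8 of the 12 correlated best, among the arrays of the other chip, with the one at their own position. In 2 of these 6 pairs 1 array detected the Y-linked Eif2s3y and the other did not, and whether any pair shares RNA is not known here. The arrays were kept as separate replicates, and p-values are too small where a pair does share it. With the pairs averaged, 5 of the 8 calls in Rbpj;MyoD against MyoD-/- and none of the 2 calls in Rbpj;MyoD against DnMaml;MyoD remained. In sorted populations, fewer cells of a type and less RNA per cell cannot be told apart.

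Interferons bind cell surface receptors whose JAK kinases phosphorylate STAT proteins. Type I interferon acts through a complex that includes Stat2 and Irf9 and binds the interferon-stimulated response element (ISRE), and interferon gamma acts through the gamma-activated site (GAS). The induced genes include antiviral effectors and the parts of class I presentation, in which proteasome subunits make peptides, Tap1 and Tap2 carry them into the endoplasmic reticulum, and B2m pairs with a class I heavy chain such as H2-K1. Skeletal muscle fibres are known for low class I display in the absence of inflammation.

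Detection split the genes sharply. Of the 35, 8 were detected on all 47 arrays, namely the interferon gamma receptor subunit Ifngr1, the transcription factors Irf1 and Irf9, the effectors Rsad2, Gbp2 and Ifitm3, the immunoproteasome subunit Psmb10 and the class I light chain B2m. Another 12 were detected on no array, namely the sensors and adaptors Ifih1 and Trim25, the transcription factor Irf7, the effectors Usp18, Ifit1, Oasl2, Oas1a, Mx1, Mx2 and Xaf1, and the presentation genes Psmb8 and H2-D1. Psmb9, an immunoproteasome subunit, was detected on 1 array. By role, 1 of 3 sensors, 1 of 1 receptor, 3 of 4 transcription factors, 10 of 17 antiviral effectors and 7 of 10 presentation genes passed. A probe that is not detected gives no level for its gene and does not show that the transcript is absent. Of the 22 tested genes, 6 were detected on fewer than 24 arrays, and for these the low values lie near background.

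**Figure D1:**
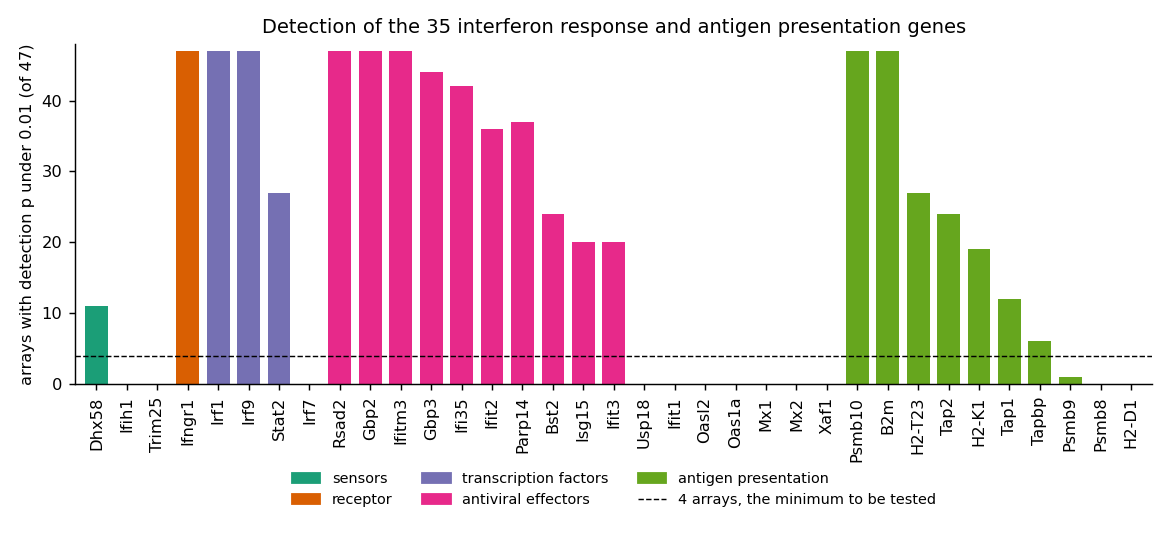
Number of arrays, out of 47, on which each of the 35 genes was detected (bars, coloured by role), with a dashed line at the minimum of 4 arrays for testing. Of the bars, 8 reach 47 arrays, and 13 genes lie below the line.

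The promoters of the 4 genes with the lowest F-test p over the 5 genotypes are shown because these genes carry the differences described below. They are RefSeq windows of GRCm38.p6, 250 bases before to 50 bases after the gene start, written 5′ to 3′ on the gene's strand, with matches to an ISRE pattern (GAAANNGAAA or its reverse TTTCNNTTTC) and to a GAS pattern (TTCNNNGAA, which reads alike on both strands) in capitals.
Rsad2, chr12:26456403-26456702, minus strand: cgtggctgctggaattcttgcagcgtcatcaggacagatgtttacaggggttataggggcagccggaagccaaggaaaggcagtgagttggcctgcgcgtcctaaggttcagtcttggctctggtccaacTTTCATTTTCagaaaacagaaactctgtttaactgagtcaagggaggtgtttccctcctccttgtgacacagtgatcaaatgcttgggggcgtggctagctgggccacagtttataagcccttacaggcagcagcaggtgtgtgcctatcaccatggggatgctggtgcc
Gbp2, chr3:142620413-142620712, plus strand: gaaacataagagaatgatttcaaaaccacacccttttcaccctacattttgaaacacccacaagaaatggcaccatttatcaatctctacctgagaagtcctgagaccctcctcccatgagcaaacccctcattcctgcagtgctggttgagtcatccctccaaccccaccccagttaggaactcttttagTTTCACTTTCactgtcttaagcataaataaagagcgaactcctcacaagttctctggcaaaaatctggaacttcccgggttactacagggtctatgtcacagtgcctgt
Ifitm3, chr7:141010695-141010994, minus strand: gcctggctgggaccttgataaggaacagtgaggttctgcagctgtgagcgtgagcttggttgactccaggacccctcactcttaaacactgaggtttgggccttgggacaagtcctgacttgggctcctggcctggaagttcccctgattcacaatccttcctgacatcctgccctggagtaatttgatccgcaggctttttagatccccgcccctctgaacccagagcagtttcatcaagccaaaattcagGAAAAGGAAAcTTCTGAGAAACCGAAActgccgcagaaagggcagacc
Psmb10, chr8:105938343-105938642, minus strand: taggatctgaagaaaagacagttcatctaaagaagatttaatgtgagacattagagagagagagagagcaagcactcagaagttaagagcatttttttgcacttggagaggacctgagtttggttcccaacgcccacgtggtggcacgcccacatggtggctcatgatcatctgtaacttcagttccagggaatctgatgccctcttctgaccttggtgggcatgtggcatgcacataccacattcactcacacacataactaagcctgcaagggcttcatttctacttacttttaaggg
Rsad2 has 1 ISRE match beginning 120 bases before the start, and Gbp2 has 1 beginning 59 bases before it. Ifitm3 has 2 ISRE matches whose first bases are 2 and 19 bases after the start, with 1 GAS match from base 13 that overlaps the second of them. Psmb10 has no match to either pattern in this window. RefSeq promoters were found for 29 of the 35 genes, in 34 windows, of which 13 (38.2%) held an ISRE match and 7 (20.6%) a GAS match. Over all 32851 windows the shares were 3.44% and 8.3%. A match describes these letters only. Dhx58, Usp18, Mx1, Mx2, Parp14 and Tap2 had no window in the table.

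Levels are log2 normalised intensities. They are compared between genotypes for each gene, and never between genes. The printed levels are not adjusted for chip, and the chips hold the genotypes unequally. All 4 MyoD+/- arrays but only 4 of the 10 wild-type arrays lie on chips 4 to 7. Over the 5 genotypes, 10 of the 22 genes passed the F-test at an adjusted p of 0.05 (limma, chip as a term, Benjamini-Hochberg over all genes), against 3304 of the 8658 genes, or 38.2%. They were Rsad2 (adjusted p = 2.52e-10), Gbp2 (6.55e-06), Ifitm3 (8.00e-05), Psmb10 (0.000248), Stat2 (0.00341), Irf1 (0.00361), H2-T23 (0.0132), Irf9 (0.0174), Ifngr1 (0.0388) and H2-K1 (0.0412).

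Among the transcription factors, Irf1 is an activator induced by interferon gamma and other inflammatory signals. Its level (lowest, median and highest) was 12.42, 13.10 and 13.62 in Rbpj;MyoD, 12.27, 13.18 and 13.93 in DnMaml;MyoD, and 11.92, 12.38 and 13.45 in MyoD-/-. It was 13.06, 13.33, 13.16 and 13.33 on the 4 MyoD+/- arrays, and 12.39, 12.78 and 13.27 in wild type. MyoD-/- had the lowest median, and all 5 groups overlapped. Stat2, the STAT of the type I complex, stood at 6.64, 8.02 and 8.24 in Rbpj;MyoD, 6.16, 7.08 and 7.48 in DnMaml;MyoD, and 5.92, 6.54 and 7.38 in MyoD-/-. It stood at 6.36, 6.19, 7.21 and 6.69 in MyoD+/- and at 6.22, 7.24 and 7.73 in wild type. The Rbpj;MyoD arrays fell into a high and a low set. The 4 on chips 4 to 7 lay between 8.02 and 8.24, above all 8 MyoD-/- arrays of the same chips (5.92 to 7.38), while the 3 on chip 3 lay between 6.64 and 7.09, within the range of the 4 MyoD-/- arrays there (6.30 to 7.22). Stat2 was detected on 4 of 7 Rbpj;MyoD, 6 of 8 DnMaml;MyoD and 9 of 18 MyoD-/- arrays.

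Irf9, the DNA-binding subunit of the type I complex, measured 9.20, 9.74 and 10.15 in Rbpj;MyoD, 9.33, 9.53 and 9.88 in DnMaml;MyoD, and 8.80, 9.42 and 10.06 in MyoD-/-. In MyoD+/- it measured 9.17, 8.97, 9.47 and 9.10, and in wild type 8.88, 9.22 and 9.43. Its medians ran lower with each step in that order from Rbpj;MyoD to MyoD+/-, with wide overlap between neighbours. Ifngr1 measured 8.10, 8.56 and 8.88 in Rbpj;MyoD, 8.29, 8.39 and 8.80 in DnMaml;MyoD, and 7.48, 8.65 and 9.04 in MyoD-/-. In MyoD+/- it measured 8.85, 8.89, 8.57 and 8.85, and in wild type 8.75, 8.95 and 9.13. Neither Irf9 nor Ifngr1 passed the threshold in any single comparison.

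Among the antiviral effectors, Rsad2 encodes viperin, an endoplasmic reticulum protein that restricts many viruses. Its level was 8.72, 9.12 and 9.52 in Rbpj;MyoD, 8.45, 8.70 and 9.09 in DnMaml;MyoD, and 7.81, 8.62 and 9.10 in MyoD-/-. It was 9.17, 9.57, 9.48 and 9.38 in MyoD+/-, and 9.35, 9.75 and 10.22 in wild type. All 18 MyoD-/- arrays lay below the lowest wild-type array, and 4 of the 7 Rbpj;MyoD arrays lay above the highest MyoD-/- array. Gbp2 is a guanylate-binding GTPase that attacks the vacuoles of intracellular parasites and bacteria. Its level was 12.02, 12.65 and 13.35 in Rbpj;MyoD, 11.29, 12.69 and 12.98 in DnMaml;MyoD, and 11.23, 12.47 and 12.83 in MyoD-/-. It was 11.68, 11.56, 11.54 and 11.69 in MyoD+/-, and 10.65, 11.56 and 12.20 in wild type. Of the 18 MyoD-/- arrays, 12 lay above the highest wild-type array.

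Ifitm3, a membrane protein that blocks entry of enveloped viruses, had a level of 12.79, 13.07 and 13.14 in the Rbpj mutant, 12.43, 13.06 and 13.565 in the DnMaml mutant, and 11.56, 12.32 and 13.44 in MyoD-/-. It was 13.01, 13.02, 12.49 and 12.92 in MyoD+/-, and 12.17, 12.46 and 12.92 in wild type. All 7 Rbpj mutant and all 8 DnMaml mutant arrays lay above the MyoD-/- median, but the Rbpj mutant range lay inside that of MyoD-/- and the DnMaml mutant range overlapped it. Parp14, a mono-ADP-ribosyltransferase, had a level of 6.16, 8.21 and 8.45 in the Rbpj mutant, 6.96, 7.34 and 7.88 in the DnMaml mutant, and 5.24, 7.13 and 8.11 in MyoD-/-. It was 7.21, 6.98, 7.42 and 7.79 in MyoD+/-, and 6.00, 7.22 and 7.66 in wild type. Like Stat2, it was high on the 4 Rbpj mutant arrays of chips 4 to 7 (8.21 to 8.45, against 6.99 to 7.91 in MyoD-/-) and low on the 3 of chip 3 (6.16 to 7.19, against 6.17 to 7.06 in MyoD-/-).

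Among the presentation genes, Psmb10 encodes a catalytic subunit that replaces its constitutive counterpart in the immunoproteasome. Its level was 9.68, 10.12 and 10.29 in the Rbpj mutant, 9.73, 9.96 and 10.14 in the DnMaml mutant, and 9.11, 9.59 and 9.999 in MyoD-/-. It was 9.46, 9.79, 9.58 and 9.68 in MyoD+/-, and 9.02, 9.65 and 9.94 in wild type. The MyoD-/- and wild-type ranges nearly coincided. H2-T23 encodes Qa-1, a nonclassical class I chain read by natural killer cell receptors. Its level was 7.44, 7.84 and 8.15 in the Rbpj mutant, 5.91, 6.54 and 7.57 in the DnMaml mutant, and 5.41, 6.90 and 8.09 in MyoD-/-. It was 7.47, 6.86, 6.63 and 8.31 in MyoD+/-, and 5.02, 5.87 and 7.27 in wild type. Every Rbpj mutant array lay above the highest wild-type array. This pair of groups was not tested, and how many of all genes separate it was not counted. Only chips 4 to 7 hold arrays of both groups, so chip enters this separation. H2-T23 was detected on 7 of 7 Rbpj mutant, 3 of 8 DnMaml mutant, 11 of 18 MyoD-/-, 4 of 4 MyoD+/- and 2 of 10 wild-type arrays, so its low levels lie near background.

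H2-K1, a classical class I heavy chain, ranged over 5.34, 7.39 and 8.12 in the Rbpj mutant, 5.21, 6.00 and 7.36 in the DnMaml mutant, and 5.04, 6.43 and 7.91 in MyoD-/-. It measured 7.55, 7.64, 6.69 and 8.08 in MyoD+/-, and 4.75, 5.38 and 7.56 in wild type. H2-K1 was detected on 4 of 7, 3 of 8, 6 of 18, 4 of 4 and 2 of 10 arrays of those groups in that order. Within each genotype other than MyoD+/- it spanned more than 2 log2 units, and no comparison passed the threshold for it. H2-K1 and H2-T23, and likewise Gbp2 and Gbp3, belong to families of related genes, and since the probe sequences were not used here, signal shared between family members cannot be told apart.

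**Figure D2:**
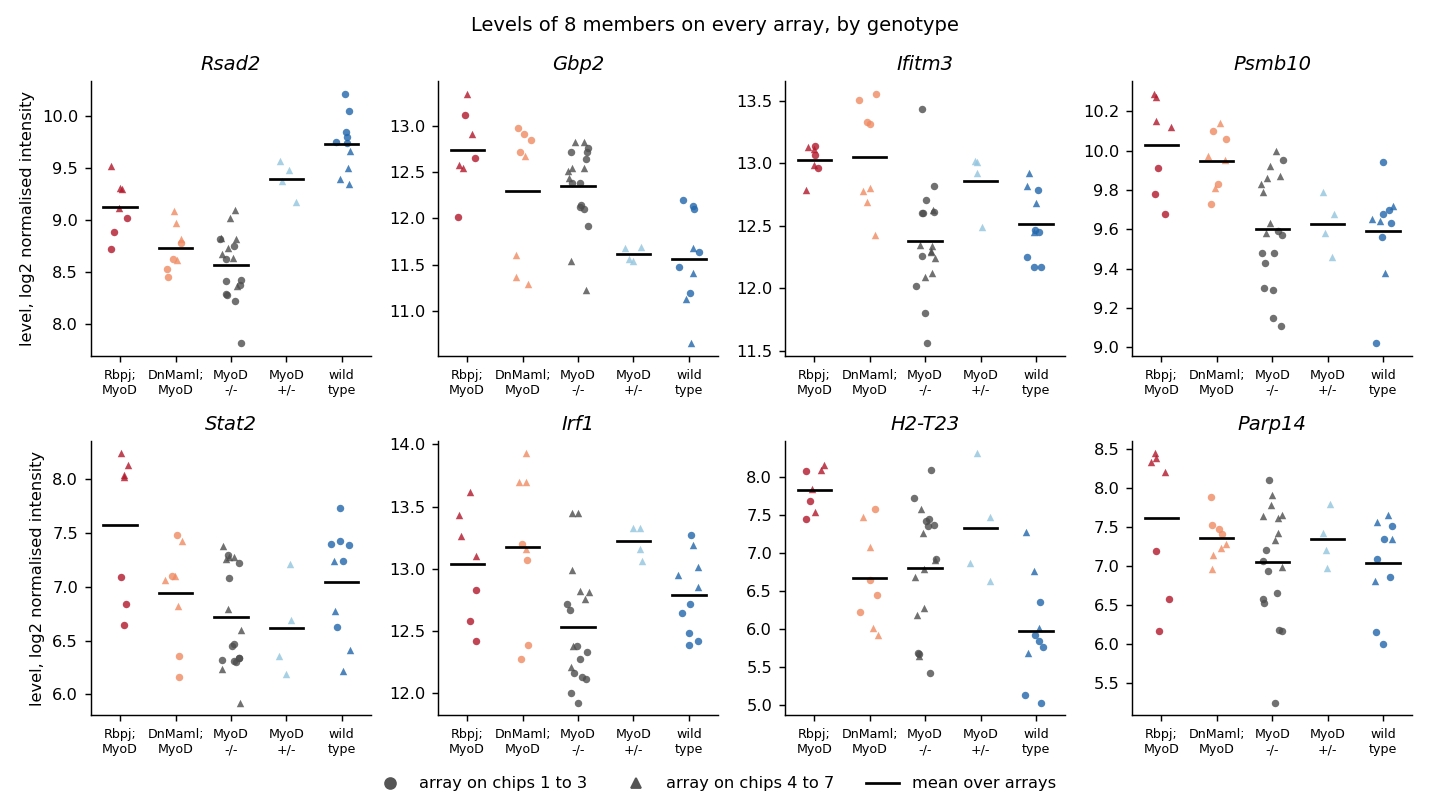
Level (log2 normalised intensity) of 8 genes on every array in Rbpj;MyoD, DnMaml;MyoD, MyoD-/-, MyoD+/- and wild type, with circles for chips 1 to 3, triangles for chips 4 to 7 and bars for group means; each panel has its own axis, which does not start at 0. Rsad2 separates all 18 MyoD-/- arrays from the 10 wild-type arrays, while the high Stat2 and Parp14 values of Rbpj;MyoD are the 4 arrays of chips 4 to 7.

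Of the 5 comparisons, Rbpj;MyoD against MyoD-/- gave the most calls among these genes. In Rbpj mutant progenitors, 8 of the 22 genes (36.4%) rose relative to MyoD-/- and none fell, where 24.5% of all genes changed, 12.2% upward. The 8 were Stat2 and Irf1, the effectors Rsad2, Gbp2, Ifitm3 and Parp14, and the presentation genes Psmb10 and H2-T23. The differences ran from 1.33-fold for Irf1 to 1.96-fold for Stat2. Of the 22 genes, 19 (86.4%) had a difference above 0 and the median difference was 0.36 on the log2 scale. Over all genes 46.4% lay above 0 and the median was -0.02. The 22 genes were chosen with earlier results of these data known, so these shares are no independent test.

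The lowest p-values were those of Rsad2 (0.60 ± 0.13 on the log2 scale, SE, adjusted p = 0.000354) and Ifitm3 (0.72 ± 0.15, adjusted p = 0.000365). Stat2 was higher by 0.97 ± 0.22 (adjusted p = 0.00082) and Psmb10 by 0.44 ± 0.10 (adjusted p = 0.000871). All 7 Rbpj mutant arrays lay above the MyoD-/- median for each of these 4 genes, and for Irf1 and H2-T23 as well. Gbp2 was higher by 0.57 ± 0.19 (adjusted p = 0.0251), H2-T23 by 0.87 ± 0.32 (adjusted p = 0.0397), Irf1 by 0.41 ± 0.15 (adjusted p = 0.04) and Parp14 by 0.66 ± 0.25 (adjusted p = 0.0487). For no member did the 7 and 18 arrays separate fully, as 1.54% of all genes did. A second Psmb10 probe gave 0.44 (adjusted p = 0.00249), and of 4 other Irf1 probes 2 passed the threshold. A second Gbp2 probe, detected on 5 arrays, gave 0.35 (adjusted p = 0.356), and the Gbp2 call was lost with the detected probes averaged (0.46, adjusted p = 0.103). B2m missed it with its brightest probe (0.36, adjusted p = 0.0605) and passed it with its second (0.46, adjusted p = 0.0127).

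Within single chips, Rsad2, Ifitm3, Stat2, Psmb10, H2-T23 and Parp14 were higher in the Rbpj mutant on 5 of 5 chips, and Irf1 and Gbp2 on 4 of 5. On chips 4 to 7 alone, the 4 Rbpj mutant arrays lay above all 8 MyoD-/- arrays for Rsad2, Ifitm3, Psmb10, Stat2, Parp14, B2m and the tetratricopeptide effector Ifit3, where 13.2% of all genes separated in either direction. The Rsad2, Ifitm3, Stat2 and Psmb10 calls held when any 1 of the 47 arrays was left out. The Parp14 call was lost without any 1 of 35 arrays (adjusted p 0.0501 to 0.121), and the Gbp2 call without Rbpj;MyoD 3, 4 or 6 (0.0613 to 0.0993). The Irf1 call was lost without MyoD-/- 7, 10, 13, 14, 15 or 17 or Rbpj;MyoD 2, 4 or 5 (0.0512 to 0.182), and the H2-T23 call without MyoD-/- 7, 11 or 18 or Rbpj;MyoD 3, 4, 5, 6 or 7 (0.0562 to 0.115). Under scaling of each array to 1 common median in place of quantile normalisation, Gbp2 (adjusted p = 0.183), Irf1 (0.426) and Psmb10 (0.123) no longer passed.

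**Figure D3:**
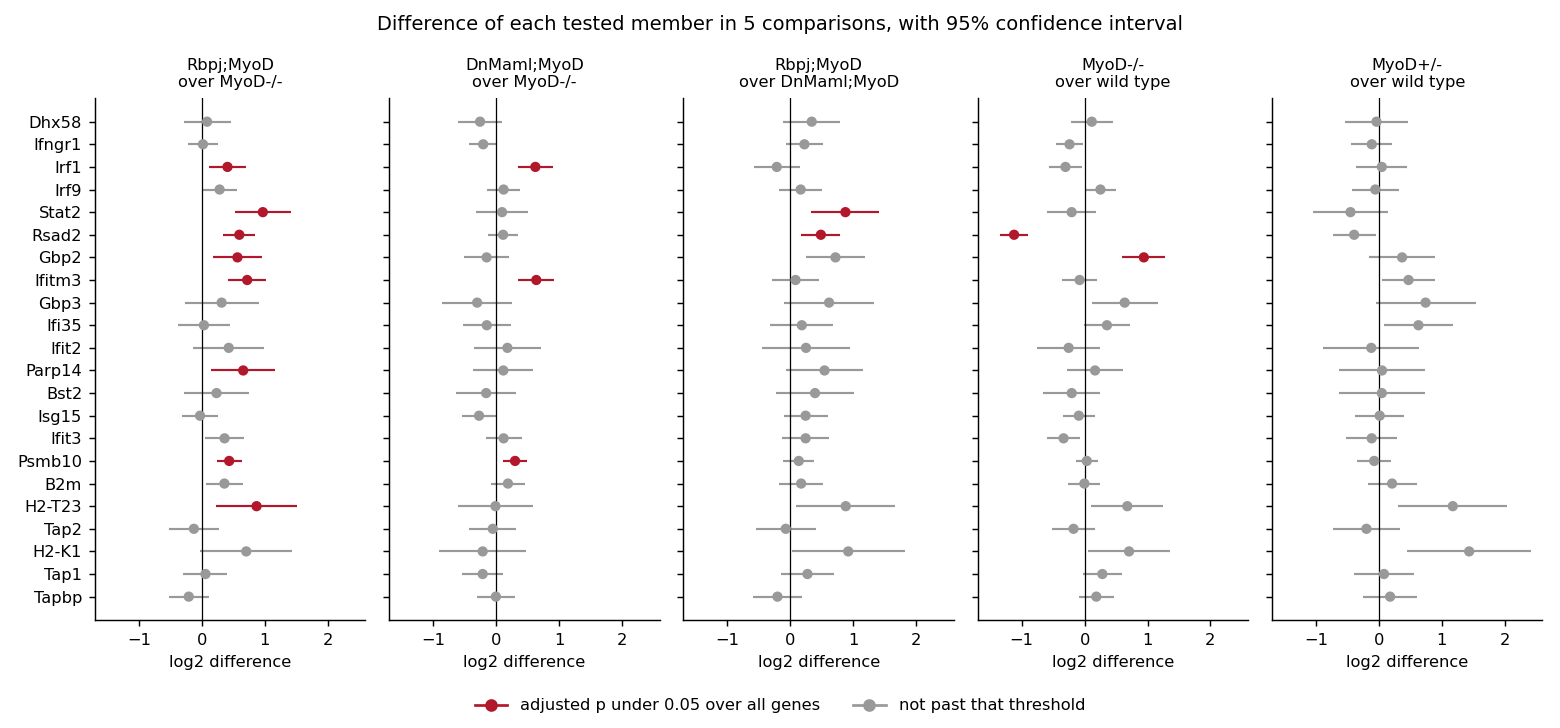
Difference in log2 level with its 95% confidence interval for each of the 22 tested genes (down the page, grouped by role) in 5 comparisons, red where the adjusted p over all genes was under 0.05. The 8 red points of Rbpj;MyoD over MyoD-/- all lie above 0, and MyoD-/- over wild type has 1 red point on each side, Rsad2 at -1.12 and Gbp2 at 0.94.

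Markers of other cells moved in the same comparison. Of 9 tested fibroblast and interstitial genes, 9 rose in the Rbpj mutant relative to MyoD-/- (median difference 1.13), among them Pdgfra (1.96), the collagen gene Col1a1 (1.65), Thy1 (1.60), Lum (1.59) and Dcn (1.13). Their summed normalised intensity was 63090 to 105488 in the Rbpj mutant and 33997 to 93357 in MyoD-/-. Erythroid genes went the other way, with 4 of 4 lower (median -1.63), and their sum was 4974 to 23275 in the Rbpj mutant and 9841 to 52566 in MyoD-/-. Of 10 muscle progenitor genes, 1 rose and 8 fell (median -0.69). Of 8 endothelial genes, Eng rose (1.29, adjusted p = 3.83e-06) and the other 7 were not called (list median -0.04). The part of these cells in the interferon gene differences was not tested. Leukocyte markers were near background throughout. Of 20 listed, 17 had a probe and 14 of those were detected on no array, including the pan-leukocyte gene Ptprc, the myeloid genes Lyz2 and Itgam and the T cell gene Cd3e. Only Laptm5 was tested, which passed in no comparison, and the leukocyte sums were 681 to 790 in the Rbpj mutant and 611 to 863 in MyoD-/-.

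The comparison of DnMaml;MyoD with MyoD-/- gave calls in Ifitm3, Irf1 and Psmb10. In DnMaml mutant progenitors 3 of the 22 genes (13.6%) rose relative to MyoD-/- and none fell, where 11.9% of all genes changed, 6.68% upward and 5.17% downward. The share is close to that of all genes, as was the median difference of -0.01 (-0.01 for all genes). The 3 were Ifitm3, higher by 0.64 ± 0.14 (1.56-fold, adjusted p = 0.00177), Irf1, higher by 0.62 ± 0.14 (1.54-fold, adjusted p = 0.00185), and Psmb10, higher by 0.30 ± 0.09 (1.23-fold, adjusted p = 0.0267). These 3 also rose in the Rbpj mutant, but both comparisons use the same 18 MyoD-/- arrays, so they are not independent of each other. For Irf1, 3 of 4 other probes passed the threshold in the DnMaml mutant, and the second Psmb10 probe gave 0.46 (adjusted p = 0.00207).

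Within chips, Irf1 and Ifitm3 were higher in the DnMaml mutant on 6 of 6 chips and Psmb10 on 5 of 6, with -0.08 on chip 5. The Psmb10 call was lost without DnMaml;MyoD 1, 4 or 7 (adjusted p 0.0565 to 0.0692). Under common-median scaling none of the 3 passed, at 0.053 for Ifitm3, 0.0975 for Irf1 and 0.436 for Psmb10. On chips 4 to 7 alone, 2 of the 22 genes rose (Irf1 and Ifitm3) and 2 fell, Gbp3 (-1.11, adjusted p = 0.026) and Ifngr1 (-0.31, adjusted p = 0.0466). The fibroblast and interstitial sum was 49804.5 to 84188 in the DnMaml mutant, with 1 of 9 genes called (Dcn, 0.55), and of the endothelial genes 2 of 8 rose (Egfl7, 0.45, and Eng, 0.59), and their part was not tested.

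The DnMaml mutant arrays differed among themselves by chip in several genes, among them the guanylate-binding genes Gbp2 and Gbp3. Gbp2 stood at 12.67, 11.61, 11.37 and 11.29 on the arrays of chips 4, 5, 6 and 7, against 12.85, 12.98, 12.91 and 12.72 on the 4 arrays of chips 1 and 2. Gbp3, a close relative of Gbp2, stood at 7.97, 7.11, 6.14 and 6.79 against 9.20, 8.99, 8.71 and 9.18 on the same arrays. Ifi35, an interferon-induced leucine zipper protein, stood at 6.94, 5.91, 6.76 and 6.54 against 7.57, 8.34, 8.30 and 8.04. In all 3 genes the chip sets did not overlap in the DnMaml mutant, and the median on chips 4 to 7 minus that on chips 1 and 2 was -1.39 for Gbp2, -2.13 for Gbp3 and -1.52 for Ifi35. The medians of the MyoD-/- arrays shifted by 0.01 for Gbp2, -0.29 for Gbp3 and -0.52 for Ifi35 between the same chip sets, with overlap in each. Set against MyoD-/- on the same chip, Gbp2 was 0.52 and 0.23 higher in the DnMaml mutant on chips 1 and 2, and differed by -0.02, -1.06, -0.62 and -0.60 on chips 4 to 7, so the pooled difference of -0.15 covers opposite signs. Such a split was common. Ifitm3, called in DnMaml;MyoD against MyoD-/-, split as well. It lay at 12.43 to 12.80 on chips 4 to 7 and at 13.32 to 13.565 on chips 1 and 2 in the DnMaml mutant. Parp14 and Tap1 were likewise lower on chips 4 to 7 without overlap, and Isg15 and Bst2 were higher. The chip sets did not overlap for 8 of the 22 genes and 32.4% of all genes in the DnMaml mutant (4 against 4 arrays), for 1 of the 22 and 8.73% in MyoD-/- (8 against 6 arrays), and for 4 of the 22 and 18.9% in wild type (4 against 6 arrays). Smaller groups separate more easily, so these shares do not show that the genotypes differ. Each of chips 4 to 7 holds 1 DnMaml mutant array, and chip and sample cannot be told apart there.

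Set directly against each other, Rbpj mutant and DnMaml mutant progenitors differed in Stat2 and Rsad2. These 2 of 22 genes (9.09%) rose in the Rbpj mutant, where 6.79% of all genes changed, 3.2% upward and 3.59% downward. Stat2 was higher by 0.88 ± 0.27 (1.83-fold, adjusted p = 0.0371) and Rsad2 by 0.49 ± 0.15 (1.40-fold, adjusted p = 0.045), each on 4 of 4 shared chips. For Rsad2, 4 of the 7 Rbpj mutant arrays lay above the highest DnMaml mutant array and all 7 above its median. Neither gene separated the groups fully, as 1.8% of all genes did. Gbp2 missed the threshold at 0.72 (adjusted p = 0.0535). Of the 22 differences 19 (86.4%) lay above 0, with a median of 0.25, where 49.1% of all genes did. The same 7 Rbpj mutant arrays enter this comparison and that against MyoD-/-, so the shares above 0 in the 2 comparisons are not independent. The Stat2 call was lost without DnMaml;MyoD 2, 4, 5, 7 or 8 or Rbpj;MyoD 4, 5, 6 or 7 (adjusted p 0.0594 to 0.139), and the Rsad2 call without any 1 of 18 arrays (0.0504 to 0.138). Of the fibroblast and interstitial genes 5 of 9 rose and of the erythroid genes 3 of 4 fell in this comparison, and their part was not tested.

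Loss of MyoD alone moved Rsad2 and Gbp2 in opposite directions. In MyoD-/- progenitors Rsad2 fell, with a difference of -1.12 ± 0.11 (2.18-fold lower, adjusted p = 2.45e-10), and Gbp2 rose, by 0.94 ± 0.17 (1.92-fold, adjusted p = 5.21e-05), relative to wild type. These were 2 of the 22 genes (9.09%), where 23.1% of all genes changed, 11.2% upward and 12% downward. The median difference over the 22 genes was 0.01, with 11 above 0. Under common-median scaling 873 genes rose and 415 fell in this comparison, against 967 and 1036 with quantile normalisation. Both calls held in all 67 alternative fits, and the direction held on 6 of 6 chips, at -1.60 to -0.52 for Rsad2 and 0.21 to 1.54 for Gbp2. Rsad2 was the only one of the 22 genes whose MyoD-/- and wild-type arrays did not overlap, as 0.635% of all genes did. A second Gbp2 probe, detected on 5 arrays, gave 0.55 (adjusted p = 0.0851).

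The presentation genes did not pass in MyoD-/- against wild type. H2-T23 differed by 0.68 (adjusted p = 0.0765) and H2-K1 by 0.71 (adjusted p = 0.111), while B2m differed by -0.0046 (95% interval -0.26 to 0.25) and Psmb10 by 0.03 (-0.14 to 0.21). A second Psmb10 probe, detected on all arrays, was higher by 0.27 (adjusted p = 0.0403), so its 2 probes disagree here. Rsad2 fell in MyoD-/- and rose in Rbpj;MyoD. Its mean was 9.12 ± 0.28 in Rbpj;MyoD, 8.73 ± 0.22 in DnMaml;MyoD, 8.56 ± 0.32 in MyoD-/-, 9.40 ± 0.17 in MyoD+/- and 9.73 ± 0.27 in wild type (SD). Gbp2 rose in both comparisons, and averaged 12.74 ± 0.43 in Rbpj;MyoD, 12.35 ± 0.44 in MyoD-/- and 11.56 ± 0.50 in wild type. The 18 MyoD-/- arrays enter both comparisons, so an error in their mean would move the 2 differences of a gene in opposite directions. Of the endothelial markers, Egfl7, Vwf and Esam fell in MyoD-/- (-0.64, -0.73 and -0.46), and of the fibroblast markers Osr1 and Osr2 rose (0.40 and 1.11). The erythroid sum had a median of 33930 in MyoD-/- and 17958 in wild type, with overlapping ranges. The part of these cells was not tested. Myod1 itself averaged 9.25 ± 0.21 in MyoD-/-, 10.86 ± 0.10 in MyoD+/- and 11.18 ± 0.26 in wild type. Whether its probe lies in the deleted part is not known here.

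Loss of 1 MyoD allele moved no gene past the threshold. In MyoD+/- against wild type, 0 of the 22 genes and 0% of all genes were called by limma, and the lowest adjusted p over all genes was 0.895. At an unadjusted p under 0.05 there were 412 genes (4.76%), of which 5 were in the set. H2-K1 had the lowest of these p-values among the 22, at 1.43 ± 0.49 (unadjusted p = 0.00556, adjusted p = 0.93), and its 95% interval of 0.45 to 2.42 leaves the size of its difference poorly bounded. H2-T23 followed at 1.17 (0.31 to 2.04), Rsad2 at -0.39 (-0.74 to -0.05), Ifi35 at 0.63 (0.08 to 1.18) and Ifitm3 at 0.47 (0.06 to 0.88). The 4 MyoD+/- arrays limit the precision of all of these. The summed intensity of the erythroid markers was 48371 to 56342 in MyoD+/- and 7944 to 47453 in wild type, without overlap. All 4 MyoD+/- arrays but only 4 of the 10 wild-type arrays lie on chips 4 to 7. The sums carry no chip term, so chip enters this separation. The sums of the other marker lists overlapped. The part of these cells was not tested.

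A wider list of 147 interferon and presentation genes outside the set was examined for context, of which 127 had a probe and 61 were tested. This list too was chosen with earlier results of these data known. In the Rbpj mutant against MyoD-/-, 20 of the 61 rose and 5 fell (41%), and the median difference was 0.18, where 24.5% of all genes changed, 12.2% upward, and their median was -0.02. Of the antiviral effectors 10 of 17 rose and 2 fell (median 0.42), and of 11 receptor and JAK-STAT genes 5 rose and none fell (median 0.36). Of the class I presentation genes 0 of 14 rose and 1 fell, with a median of -0.07. Of the sensors and adaptors 2 of 11 rose and 2 fell. Of 19 interferon genes themselves, 17 had a probe and 1, Ifna6, was tested and not called.

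Uba7, the activating enzyme for Isg15 conjugation, averaged 8.89 in the Rbpj mutant and 7.53 in MyoD-/-, a difference of 1.28 ± 0.16 (adjusted p = 3.91e-08), and its groups did not overlap. Cxcl9, a chemokine induced by interferon gamma, was higher by 1.53 ± 0.23 (adjusted p = 1.55e-06), and Ifitm2, a relative of Ifitm3, by 0.54 ± 0.09 (adjusted p = 2.89e-05). The signalling genes Ptpn6 (0.76), Jak2 (0.55) and Ifngr2 (0.53) rose, as did the transcription factor Irf8 (0.94) and the GTPase Irgm2 (0.57). The toll-like receptor gene Tlr4 fell, with a difference of -1.26 (adjusted p = 7.85e-07), without overlap, and Irf3 (-0.25) and the proteasome activator Psme3 (-0.35) fell by less. The class II pathway genes Ifi30 (0.78) and H2-DMa (0.55) rose.

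In the DnMaml mutant against MyoD-/-, 6 of the 61 rose and 2 fell (13.1%), close to the 11.9% over all genes. Uba7 (0.67), Ifi27l2a (0.73), the JAK-STAT inhibitor Socs3 (0.66), the peptide-loading chaperone Calr (0.46) and Ifi30 (0.84) rose, and Tlr4 (-1.21) and Tor3a (-0.88) fell. The Rbpj mutant exceeded the DnMaml mutant in 4 of the 61 (6.56%) and was lower in none, where 6.79% of all genes changed, 3.2% upward. The 4 were Cxcl9 (1.11), Ifngr2 (0.67), the RNA-activated kinase Eif2ak2 (0.62) and Uba7 (0.61). In MyoD-/- against wild type 12 rose and 2 fell (23%), where 23.1% of all genes changed in either direction. The share that rose was 19.7%, against 11.2% over all genes. Socs3 fell, with a difference of -0.86 (adjusted p = 3.37e-06), and Nlrc5, the transactivator of class I genes, rose (0.78, adjusted p = 0.0413) together with the lipid-presenting Cd1d1 (0.56) and H2-DMa (0.54).

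**Figure D4:**
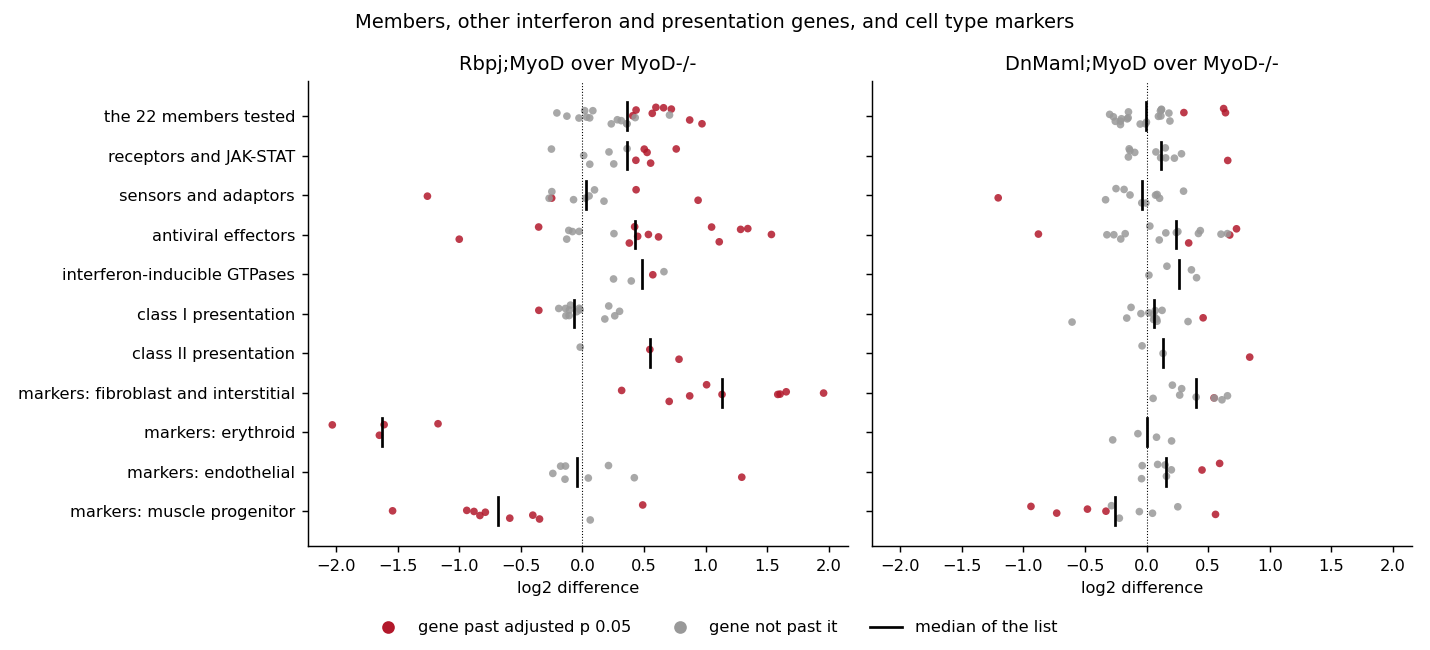
Difference in log2 level of each tested gene (points, red where the adjusted p was under 0.05) and the median of each list (bars) for Rbpj;MyoD over MyoD-/- on the left and DnMaml;MyoD over MyoD-/- on the right. In the left panel the medians of the 22 genes (0.36) and of the other antiviral effectors (0.42) lie above 0 and that of the other class I genes (-0.07) does not, and the fibroblast (1.13) and erythroid (-1.63) markers lie farther out.

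Several of the 22 genes varied widely among arrays of 1 genotype. After genotype and chip were fitted, the residual SD had a median of 0.40 over the 22 genes and 0.28 over all genes, and 12 of the 22 lay above the 75th percentile of genes of like level. The widest were H2-K1 (0.82), H2-T23 (0.72), Gbp3 (0.66) and the effector Ifit2 (0.63), and among the narrowest were Rsad2 (0.27) and Psmb10 (0.21). Arrays that deviated in H2-K1 often deviated in H2-T23. Of the 5 highest arrays for each gene, 3 were shared (MyoD-/- 1, wild type 10 and DnMaml;MyoD 3), and of the 5 lowest 3 were shared (DnMaml;MyoD 6, MyoD-/- 11 and MyoD-/- 3). MyoD-/- 1 deviated by 1.70 in H2-K1 and 1.59 in H2-T23. The lowest deviation in Gbp2 was that of MyoD-/- 18 (-0.79), which was also among the 5 lowest for Gbp3 (-1.03) and Ifi35 (-0.68). Over all genes, this array had the lowest score of the 47 on the first component of the residuals (-0.269), but it did not stand apart. The next lowest was wild type 1 at -0.247, and the highest was wild type 9 at 0.25. The component held 15.8% of the residual variation, and its sign was set so that it rises with Ifi35. DnMaml;MyoD 6, 7 and 8 were among the 7 lowest scores.

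**Figure D5:**
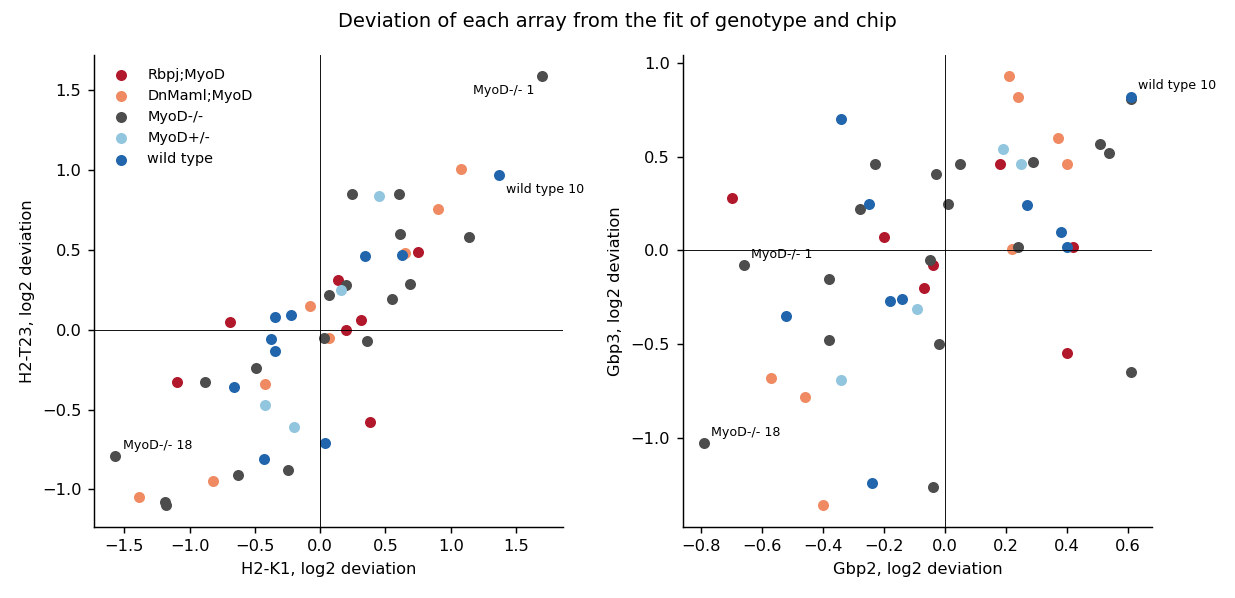
Deviation of each of the 47 arrays from the fit of genotype and chip (log2 units), for H2-K1 against H2-T23 on the left and Gbp2 against Gbp3 on the right, coloured by genotype. MyoD-/- 1 lies at the upper right for H2-K1 and H2-T23 (1.70 and 1.59), and MyoD-/- 18 at the lower left for Gbp2 and Gbp3 (-0.79 and -1.03).

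Levels also differed between chips within genotype. Between the 8 MyoD-/- arrays of chips 4 to 7 and the 10 of chips 1 to 3, the medians of 14 of the 22 genes were higher and those of 8 lower on chips 4 to 7. The shift exceeded 1 log2 unit in 4 of the 22 genes (18.2%) and in 3.89% of all genes. Those 4 were the tetherin gene Bst2 (1.96), the ubiquitin-like Isg15 (1.35), Ifit2 (1.10) and Parp14 (1.02), all higher on chips 4 to 7. The lowest value was that of H2-T23 (-0.62). Against chips 1 and 2 alone the shifts were 1.82 for Bst2, 1.26 for Isg15, 0.84 for Parp14, 0.02 for Ifit2 and 0.22 for H2-T23. The Ifit2 and H2-T23 values above thus rest on chip 3, where the MyoD-/- medians were 5.11 and 7.40. The arrays of different chips are also different samples, and chip and sample cannot be told apart. Chip was a term in every comparison.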

How the data were processed

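RNA of sorted E17.5 back muscle progenitors was measured on 47 Illumina bead arrays. The deposited probe intensities were not normalised, and each came with a detection p-value, per the file headers; GenomeStudio 2010.1 is named in the submitters' processing notes. The deposited table of processed intensities (column medians of 37.0 to 38.1) was used as an alternative. Background correction by detection p-value, an offset of 16, quantile normalisation and log2 followed (neqc, limma 3.58.1, R 4.3.3). Probes with a detection p under 0.01 in at least 4 arrays were kept (12482 of 25697), and the brightest probe stood for a gene. Of the 25697 probes, 23978 have 1 gene symbol and 1719 have none. Array medians before normalisation were 64.1 to 250. Precision depends on how many arrays a genotype has.

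A linear model with genotype and chip (7 chips, 36 residual degrees of freedom) was fitted to all 8658 genes with limma's lmFit and eBayes. P-values are two-sided and Benjamini-Hochberg adjusted over all genes, with a threshold of 0.05. The fit was tested on simulated data. All arrays counted as replicates. Genes were named by rule. Levels were given for the 10 members called in the most comparisons, with ties ordered by lowest F-test p. Every called member was named, and up to 3 called genes per wider list and comparison. The levels of H2-K1 and values of Gbp3, Ifi35, Ifit2, Bst2 and Isg15 were named after they were seen. So were those of Tor3a, Eif2ak2 and Ifi27l2a where below the first 3. The members and all gene lists were chosen with earlier results of these data known. Replicate numbers are shared between genotypes but pair no samples by the labels. Alternatives covered scaling, filter, probe choice, the chip term, array weights, single arrays and chips.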

Additional observations from a re-analysis of the deposited data

Results flagged for a closer look

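In 88 sets of levels (22 genes in the 4 genotypes with 4 to 10 arrays), 3 had 1 array far from the others of its genotype, where chance gives about 1 in 20. Ifngr1 was lowest on MyoD+/- 3, at 8.57, with the nearest other array at 8.85. The same array was lowest for Tapbp, at 5.81 against 6.14 for the nearest, although Tapbp was detected on no MyoD+/- array. Ifit2 was lowest on wild type 6, at 6.26, with the nearest other array at 7.41.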

How the results depend on the processing

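The 15 called differences kept their direction in all 67 alternative fits, 47 that left out 1 array and 20 others. Of the 300 values under those 20 other fits, 227 kept the call and 73 lost it. The number of the 22 genes called in MyoD-/- against wild type was 2, and became 4 with no chip term, 4 with chip as a random block, 7 with array weights, 4 without chip 3, 5 without chip 7, 5 on chips 4 to 7 only and 5 with the first residual component as a covariate. In DnMaml;MyoD against MyoD-/- it was 3, and became 0 with a common median and 1 without chip 2; on chips 4 to 7 only it was 4, of which 2 rose and 2 fell. In Rbpj;MyoD against MyoD-/- it was 8, and became 5 with no chip term, 4 without chip 4, 5 without chip 5, 5 without chip 6 and 5 with chips 6 and 7 averaged by position. The same count rose to 12 with array weights, 10 without chip 3 and 10 on chips 4 to 7 only. In Rbpj;MyoD against DnMaml;MyoD it was 2, and became 1 with a common median, 0 with the authors' processed values, 0 with no detection filter, 1 with no chip term, 0 without chip 2, 4, 5, 6 or 7, 1 without chip 3, 5 on chips 4 to 7 only and 0 with chips 6 and 7 averaged. For any difference among genotypes it was 10, and became 6 with a common median and 6 without chip 4. Smaller changes in these counts are not all listed, and the cause of the changes was not tested. Leaving out 1 array gave 8 to 11 genes for any difference, 2 to 3 for DnMaml;MyoD and 4 to 9 for Rbpj;MyoD against MyoD-/-, 0 to 3 for Rbpj;MyoD against DnMaml;MyoD, 2 to 5 for MyoD-/- and 0 to 0 for MyoD+/- against wild type. The Parp14 call in Rbpj;MyoD was lost without Rbpj;MyoD 3 to 7, any DnMaml;MyoD or MyoD+/- array, MyoD-/- 1, 2, 4, 5, 7, 8, 11, 14, 15, 17 or 18, or wild type 1, 2, 3, 5, 7, 8 or 9. The Rsad2 call against DnMaml;MyoD was lost without Rbpj;MyoD 2 to 7, DnMaml;MyoD 1, 3, 4, 7 or 8, MyoD-/- 2, 3, 6, 9 or 11, or wild type 9 or 10. With the replicate number as a block, the counts were 1 for Rbpj;MyoD and 0 for DnMaml;MyoD against MyoD-/-, 1 for Rbpj;MyoD against DnMaml;MyoD and 5 for any difference, and 2 for MyoD-/- against wild type as before. The labels do not pair samples by these numbers. At most 1 of 4 to 10 same-numbered pairs in a comparison correlated above 0.1 after genotype and chip were fitted. Fitting chip lowers correlations between arrays of 1 chip, so these values cannot exclude pairing. Of the 15 calls, 3 were kept under this block and 12 were lost. Counting every array as its own replicate is the fit reported. The averages, tried because same-position arrays of chips 6 and 7 correlated (median r 0.49), and the residual component were chosen after seeing the data. Genes detected on few arrays have low values near background, which bounds their differences.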
